A study of Orbicella faveolata with 56 samples.

Results

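Transcript levels are described for Orbicella faveolata, a reef-building coral of the Caribbean, in colonies from inshore reefs of the Florida Keys whose fragments had been moved offshore before a test at 30 and 32 °C. The measurements were chosen by their labels alone, as the 8 RNA sequencing libraries of moved inshore corals held at 32 °C and the 8 of the same corals held at 30 °C, 16 of the 55 libraries used from the series. The corals are A3, A5 and A6, which share the genotype label In1, and B1 (In4), B2 (In5), B3 (In6), B4 (In7) and B6 (In2), so the 8 corals stand for 6 genotypes. The In1 corals are also the only ones from collection site UKI2, so genotype In1 and that site cannot be told apart. B1 and B2 came from UKI3 and B3, B4 and B6 from UKI1. After acclimation the temperature was changed over 7 days and then held for 6 days before sampling. Each coral gave 1 library at each temperature. All 16 libraries share origin and transplant site, and no library from before transplantation or from a lower temperature is part of the comparison.

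A reef-building coral is an animal that lives with dinoflagellate algae inside its cells and depends on the sugars they make. Warm water disturbs this partnership and can end in bleaching, the loss of the algae. In corals the early answer to heat is commonly read from transcripts of chaperones, antioxidant enzymes, immune and cell death genes, and fragments of a colony are clones that allow each animal to serve as its own control. The deposited tables carry assembly identifiers with no gene names and no sequences, so none of these functional groups could be looked up, the tissue could not be checked against marker genes, and transcripts are given here by identifier with their levels and changes. The study, by its title, asked how heat tolerance differs among corals from different transplant sites. The 16 libraries answer what 32 °C did to transcript levels of inshore-origin corals that had lived at an offshore site.

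Depth was similar between the temperatures. Host totals lay between 2850075 and 5298485 estimated counts, with a median of 4532753, and the lowest belonged to A6 at 32 °C. Level correlations across transcripts were 0.945 (median) between the 2 libraries of a coral, 0.958 between libraries of different In1 corals and 0.854 between genotypes. In the median transcript coral identity took 63.0% of the variance of log2 levels, with 7 degrees of freedom, and temperature 2.27%, with 1 degree of freedom. No pair of libraries within a temperature agreed within sampling noise (lowest chi-square per degree of freedom 4 at 32 °C and 6.40 at 30 °C, over transcripts with at least 20 counts in the pair). Whether the corals came from separate colonies is given by the labels only through the genotype, so for In1 the p-values below measure in part the spread between fragments of 1 genotype. Library numbers in the labels, whose meaning is not given, run unevenly: the 30 °C libraries of A3, A5, A6 and B6 carry numbers up to 16, while every library at 32 °C is numbered above 16.

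Of the 16 libraries 3 stood apart from the rest of the series, and they did not share a temperature. They were B3 and B6 at 30 °C and B1 at 32 °C, with mean correlations to the other libraries of 0.844, 0.838 and 0.845 against a series median of 0.867. The criterion for standing apart was a mean correlation below the series median by over 3 times the median absolute deviation, and 7 libraries of the series met it. The heat test, the named transcripts, the transcript lists taken from or read in other libraries, the interaction tests and the measures of whole libraries are given with and without them.

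No transcript passed the test for a change between 30 and 32 °C. Of 24257 tested transcripts, 0 had an adjusted p under 0.05 (0% called, edgeR quasi-likelihood test with coral as a block, Benjamini-Hochberg adjustment), and the smallest adjusted p was 0.0709. At an unadjusted p under 0.05 there were 781 transcripts that were higher at 32 °C (3.22%) and 672 that were lower (2.77%), together 5.99% of those tested. The DESeq2 Wald test on the same libraries and the same pairing called 93 of 25323 transcripts, which is 0.367%, with 51 higher and 42 lower. The number of calls also rested on the low-count filter: edgeR without it called 769 of 78783 transcripts, 500 higher and 269 lower. Of those 769, 430 had passed the filter and were therefore not called in the filtered fit. Between these fits the prior degrees of freedom that edgeR gives to its shared estimate of spread went from 3.67 with the filter to 722 without it, and the share of transcripts at an unadjusted p under 0.05 was 5.07% without it. Of the 93 DESeq2 calls 87 were tested in edgeR, all 87 at an unadjusted p under 0.05. Of the 87, 60 had the same direction in 8 of 8 corals. Over all tested transcripts 5.99% had such a p, and 0.627% were higher and 0.701% lower in 8 of 8. The 87 were chosen on these same libraries, so the counts give no separate support. In 39 of the 87 the largest change lay in B1, B3 or B6, and the share over all tested transcripts was not taken.

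The fitted changes were small. The median absolute change was 0.13 on the log2 scale and the upper quartile 0.25, with a median standard error (SE) of 0.19. Fitted changes exceeded 2-fold upward for 139 transcripts and downward for 44. For 87.4% of the tested transcripts the 95% interval of the change lay wholly within 2-fold in either direction, and for 52.8% within 1.5-fold. These are intervals for each transcript alone, with no adjustment for their number. When the transcripts were ordered by mean level and divided into 4 classes of equal size, the most abundant class, above a mean log2 CPM of 5.18, had 92.9% of intervals wholly within 2-fold, and the least abundant class had 76.5%. CPM is the count scaled to a common library total with TMM factors.

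**Figure D1:**
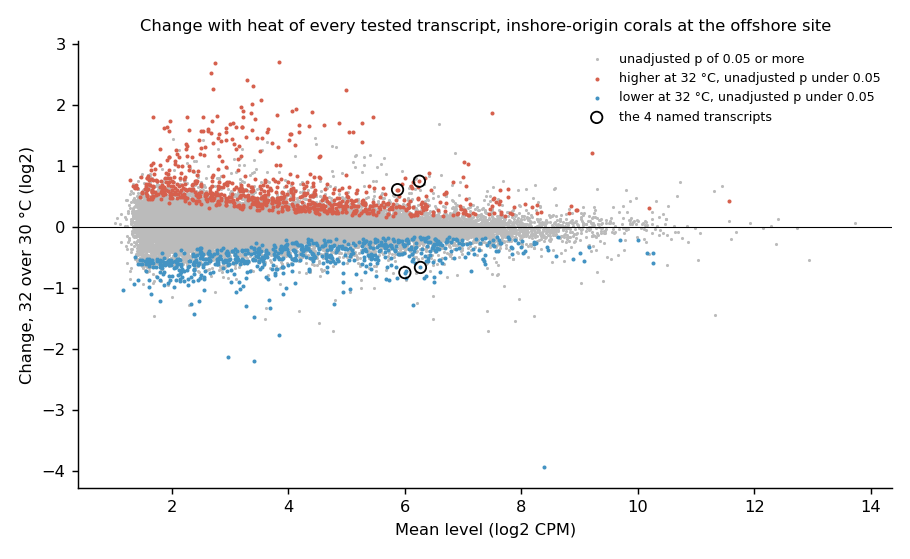
Each point is 1 of the 24257 tested transcripts, with its mean level in log2 CPM on the x axis and its fitted log2 change from 30 to 32 °C on the y axis. Red (781, higher) and blue (672, lower) points have an unadjusted p under 0.05 and circles mark the 4 transcripts described in the text. Most points lie near 0, and the largest fitted changes belong mostly to scarce transcripts.

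The transcripts with 1 direction in all 8 corals, 3 of them In1, were counted. At 32 °C 152 transcripts were higher in 8 of 8 corals, 0.627% of those tested, with a median change of 0.51 on the log2 scale (1.42-fold). Another 170 were lower in 8 of 8, 0.701%, with a median of -0.45 (1.36-fold). Those lower in every coral were the more abundant, at a median log2 CPM of 4.42 against 3.77 for those higher and 3.73 over all tested transcripts. From the most to the least abundant class, 69, 41, 26 and 34 transcripts were lower in 8 of 8 corals and 31, 47, 45 and 29 were higher, so the difference between directions did not run one way with level. The 8 values at 32 °C lay wholly above or wholly below the 8 values at 30 °C for 8 transcripts, 0.033% of those tested, with 3 above and 5 below. These counts describe the 16 libraries and were neither tested nor set against the share that chance would give.

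Since no transcript passed, those with the smallest p in each direction are described, 2 higher and 2 lower at 32 °C. None of the 4 shares its assembly component, the DN and c parts of the identifier, with another transcript of the table. OFAVBQ_DN207917_c2_g1 had the smallest p of all. Its level ran from 49.4 to 92.9 CPM at 30 °C (median 80.7) and from 27.8 to 62.2 CPM at 32 °C (median 48.9). It was lower at 32 °C in each of the 8 corals, by between 0.41 in B2 and 0.94 in B4 on the log2 scale, while the groups still overlapped because B6 was low at both temperatures. The mean went from 79.5 ± 14.6 to 47.7 ± 11.2 CPM (SD, n = 8), a log2 change of -0.75 ± 0.084 (SE, edgeR adjusted p = 0.0709).

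OFAVBQ_DN207234_c0_g2 ran from 70.7 to 135 CPM at 30 °C (median 83.8) and from 39.5 to 83.3 CPM at 32 °C (median 55.9). It too was lower in 8 of 8 corals, most in A6 (-0.94) and least in B6 (-0.35), and the groups overlapped. The fitted change was -0.67 ± 0.083 on the log2 scale (SE, edgeR adjusted p = 0.0982). Both of these transcripts were called by DESeq2, with adjusted p = 5.27e-09 for OFAVBQ_DN207917_c2_g1 and 1.44e-07 for OFAVBQ_DN207234_c0_g2.

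OFAVBQ_DN203932_c4_g3 was lower in the 3 In1 corals than in the other 5 at both temperatures. At 30 °C the 3 In1 corals held 27.2, 28.9 and 28.2 CPM, and the other 5 corals 61.7 to 80.2 CPM. At 32 °C the In1 corals held 49.3, 41.7 and 43.5 CPM and the other 5 between 83.1 and 172 CPM. It was higher at 32 °C in 8 of 8 corals, by 0.25 (B4) to 1.22 (B6) on the log2 scale, although each In1 library at 32 °C stayed below every library of another genotype at 30 °C. The mean went from 55.3 ± 23 to 96.2 ± 49.2 CPM (SD, n = 8), a log2 change of 0.75 ± 0.112 (SE, edgeR adjusted p = 0.176). DESeq2 called it (adjusted p = 7.25e-05), and so did edgeR with all 55 libraries in 1 fit (adjusted p = 0.0327).

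OFAVBQ_DN194560_c0_g1 was nearly alike in all corals at 30 °C, from 38.3 to 53.5 CPM (median 45.5), and ran from 52.2 to 99.4 CPM at 32 °C (median 68.8). Only the top of the first range and the bottom of the second overlapped. It was higher in 8 of 8 corals, with a fitted change of 0.61 ± 0.094 on the log2 scale (SE, edgeR adjusted p = 0.186; DESeq2 adjusted p = 0.000244). Without B1, B3 and B6 the changes of the 4 transcripts were between -0.74 and 0.67 on the log2 scale and none passed (edgeR adjusted p from 0.136 to 0.338, 5 corals).

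**Figure D2:**
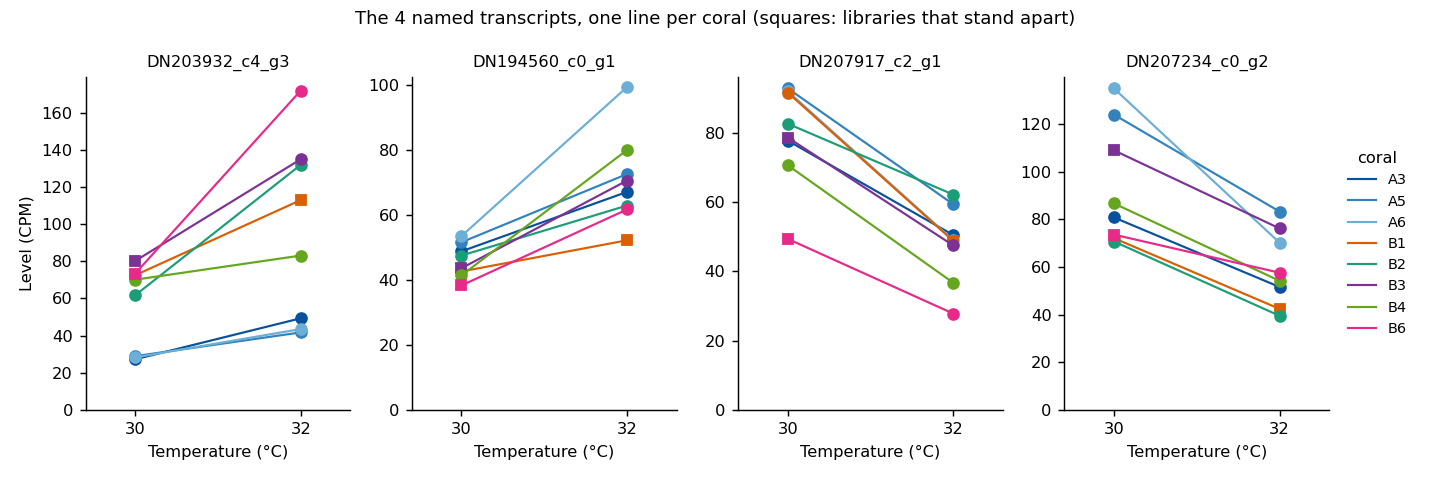
Levels in CPM on the y axis of the 4 transcripts with the smallest p in each direction, at 30 and 32 °C on the x axis, with 1 line per coral and squares for the 3 libraries that stand apart. Every line is higher at 32 °C in the panels for OFAVBQ_DN203932_c4_g3 and OFAVBQ_DN194560_c0_g1 and lower at 32 °C in the panels for OFAVBQ_DN207917_c2_g1 and OFAVBQ_DN207234_c0_g2. In the first panel the 3 In1 corals (blue) lie below the others at both temperatures.

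The corals differed in how much their transcripts changed. Over the tested transcripts the SD of a coral's log2 change was 0.46 in A3, 0.45 in A5, 0.57 in B2 and 0.56 in B4. It was 0.75 in B1, 0.79 in A6, 0.80 in B3 and 0.93 in B6. The share of transcripts over 2-fold apart between the libraries of a coral ran from 3.80% in A5 to 18.6% in B6. The corals with the larger spread are B1, B3 and B6, each with a library that stands apart, and A6, whose library at 32 °C had the lowest total. The part of depth in the spread of A6 was not tested.

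Those changes had little in common between corals, clones included. Over the 28 pairs of corals the median correlation of log2 changes across transcripts was 0.0484, a description only, since transcripts are not independent replicates. Among the 3 In1 corals it ran from -0.02 to 0.0938, no higher than the -0.12 to 0.19 of the 22 pairs that were neither both In1 nor both among B1, B3 and B6. The In1 corals, whose levels correlated at a median of 0.958, thus had changes that correlated within the range found between genotypes. The pairs outside that range were B3 with B6, at 0.55, and B1, at -0.55 with B6 and -0.36 with B3.

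**Figure D3:**
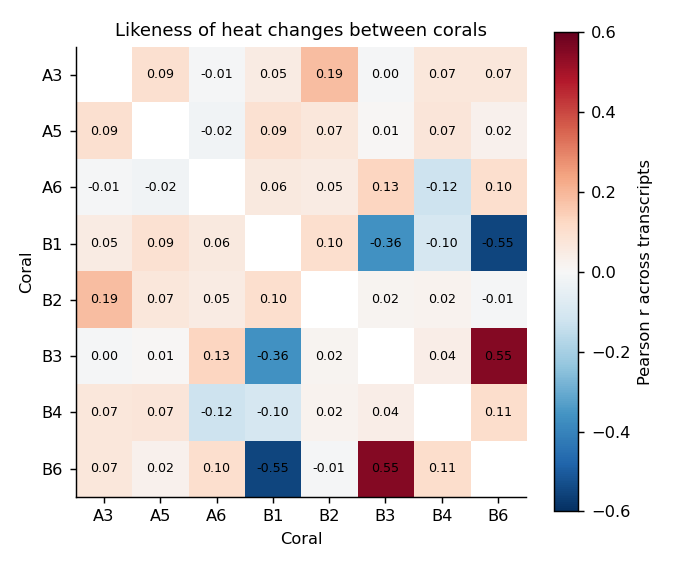
Pearson correlation across the 24257 tested transcripts between the log2 changes (32 over 30 °C) of each pair of corals. B3 and B6 changed alike (0.55) and opposite to B1 (-0.36 and -0.55), while the other pairs lay between -0.12 and 0.19.

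The library that stood apart was the one at 32 °C in B1 and the one at 30 °C in B3 and B6. Compared with the other library of its coral, B1 at 32 °C, B3 at 30 °C and B6 at 30 °C moved the same way: 515 transcripts were over 2-fold higher in all 3 and 473 over 2-fold lower in all 3, and these lists were chosen on those libraries. The 515 took 15% of host counts in B1 at 32 °C, 11.1% in B3 at 30 °C and 14.5% in B6 at 30 °C, against 3.13%, 1.88% and 1.85% in the other library of each. The 473 took 0.509%, 0.709% and 0.479% there, against 2.37%, 3.36% and 4.06%. In a decomposition of the log2 changes of the 8 corals, the first component held 37.9% of the summed squares and loaded on B1 (0.46), B3 (-0.52) and B6 (-0.71), with the other loadings between -0.0975 and 0.0151.

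Single transcripts showed this in full. OFAVBQ_DN222743_c1_g1 stood at 27000 CPM in B3 at 30 °C and at 23.6 CPM in B3 at 32 °C. In B6 it went from 32300 CPM at 30 °C to 3.17 at 32 °C, and in B1 the other way, from 1170 at 30 °C to 64900 at 32 °C. In the other 5 corals it lay between 5.48 and 61.2 CPM in all 10 libraries. In B1 at 32 °C the most abundant transcript of the list of 515 took 5.40% of all host counts of the library. OFAVBQ_DN222563_c0_g1 likewise stood at 4560 and 2800 CPM in B3 and B6 at 30 °C and at 3750 in B1 at 32 °C, and between 8.41 and 35.4 CPM in the other 13 libraries.

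Transcripts of the lower list were at or near 0 in the same libraries. OFAVBQ_DN211251_c0_g1 was at 0 in B3 and B6 at 30 °C and in B1 at 32 °C, and between 12.5 and 106 CPM elsewhere among the 16. OFAVBQ_DN208651_c0_g1 was at 0, 0.453 and 0.458 CPM in the same 3 libraries and between 11.2 and 113 CPM in the others. These 4 transcripts were chosen after their values were seen, as the 2 in each direction with the largest least difference over the 3 corals. None passed the heat test. The fitted log2 changes were -0.54 ± 1.88 for OFAVBQ_DN222743_c1_g1 and -0.49 ± 1.49 for OFAVBQ_DN222563_c0_g1 (SE, edgeR adjusted p = 0.987 and 0.983). They were 1.18 ± 1.07 for OFAVBQ_DN211251_c0_g1 and 1.17 ± 1.02 for OFAVBQ_DN208651_c0_g1 (SE, edgeR adjusted p = 0.933 for both).

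The same pattern was present in libraries that took no part in choosing the lists, at both temperatures. The difference between the mean log2 levels of the 515 and the 473 transcripts was 4.15 in B1 at 32 °C, 3.86 in B3 at 30 °C and 4.51 in B6 at 30 °C, and lay between -0.388 and 0.563 in the other 13 libraries. Elsewhere in the series its median over 39 libraries was 0.0794. It was 4.94 in B3 at the inshore site at 32 °C and 4.27 in C3, an offshore-origin coral at the offshore site, at 30 °C. Lower values of 2.71, 2.05 and 1.38 were found in B6 at the inshore site at 30 °C, in C2 at the inshore site at 32 °C and in C6 at the offshore site at 32 °C. Coral B6 thus showed it at 30 °C at both sites, and B3 at 30 °C at one site and 32 °C at the other. OFAVBQ_DN222743_c1_g1 stood at 24000 CPM in B3 at the inshore site at 32 °C (6.62 at 30 °C) and at 45500 CPM in C3 at the offshore site at 30 °C (7.10 at 32 °C). What these libraries share beyond the transcripts is not in the labels, and the part of handling, tissue condition, RNA quality or exchanged temperature labels was not tested. An exchange within a coral would turn the sign of its changes.

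**Figure D4:**
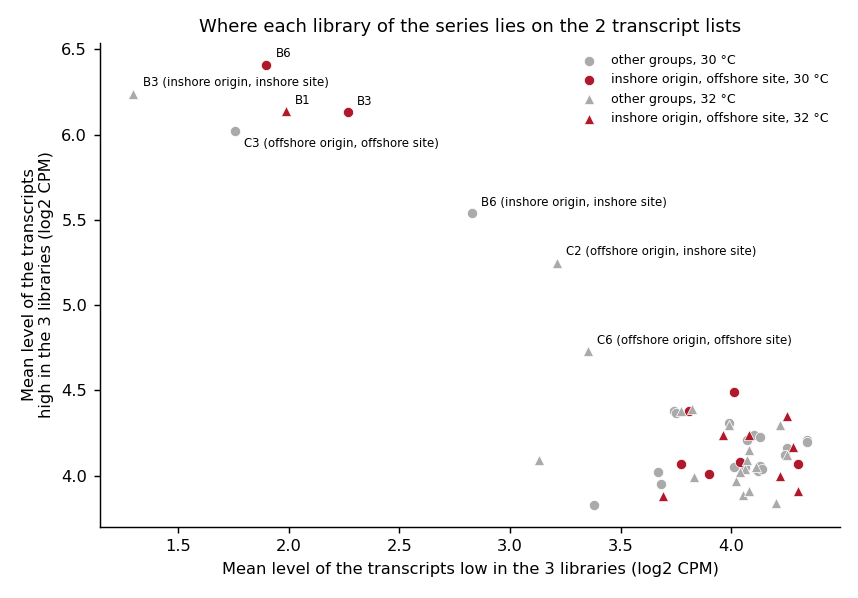
Each of the 55 libraries is placed by its mean log2 CPM over the 473 transcripts low in the 3 libraries (x axis) and the 515 transcripts high in them (y axis). Red points are the 16 libraries of inshore corals moved offshore, circles are at 30 °C and triangles at 32 °C. B1, B3 and B6 lie at the upper left with B3 of the inshore site and C3 of the offshore site, and B6, C2 and C6 lie between them and the main cloud.

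The rule that chose the 515 and the 473 transcripts fixed opposite changes in B1 and in B3 and B6, so their spread over the 8 corals is not a result. In the other 5 corals, which took no part in the choice, their median absolute changes were 0.29 and 0.39, against 0.27 over all tested transcripts. Left to corals A3, A5, A6, B2 and B4, the test called 2 of 24800 transcripts (0.00806%, edgeR, 5 corals), both higher at 32 °C. At an unadjusted p under 0.05 there were 1485. A3, A5 and A6 share genotype In1, so these 5 corals stand for In1, In5 and In7 alone, with 4 residual degrees of freedom. Each of the 2 called transcripts is named because so few were called, after its values were seen.

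OFAVBQ_DN214053_c3_g2 rose in all 5 of those corals, 3 of them In1. It went from 76.9 to 240 CPM in A3, from 106 to 299 in A5, from 61.7 to 297 in A6, from 151 to 306 in B2 and from 140 to 417 in B4. The values at 32 °C all lay above those at 30 °C. The fitted rise was 1.59 ± 0.156 on the log2 scale (3.02-fold, SE, edgeR adjusted p = 0.0432). In B3 it went from 25 to 301 CPM and in B6 from 22.2 to 337 CPM, while in B1 it went from 58.6 to 41.7 CPM. Its 3 lowest values of the 16 were thus those of the libraries that stand apart, and with all 8 corals the change was 1.86 ± 0.429 (SE, edgeR adjusted p = 0.410).

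In the rest of the series this transcript was mostly higher at 32 °C as well. Over all origins and sites it was higher in 24 of 27 pairs of libraries. These include 7 of 8 here, among them the 5 pairs on which it was chosen. In the same corals inshore it was higher in 7 of 8, and the share over all transcripts was not taken. In corals of offshore origin it was higher in 4 of 5 pairs inshore and 6 of 6 offshore. The 3 pairs in which it was lower were B1 here, B3 at the inshore site and C2 at the inshore site. In each of those pairs the library at 32 °C is one that showed the pattern of the 515 and 473 transcripts.

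The second call, OFAVBQ_DN214070_c8_g1, rested on very few counts at 30 °C. It stood at 0 in A3, B2 and B4, at 1.6 CPM in A5 and at 0.601 in A6 at 30 °C. At 32 °C it held 21.1 CPM in A3, 21.2 in A5, 128 in A6, 4.81 in B2 and 3.37 in B4 (edgeR adjusted p = 0.0432, 5 corals). The 3 In1 corals thus held the highest of these values. In B3 it went from 27.3 to 15.3 CPM, in B1 from 1.26 to 0 and in B6 from 4.3 to 4.64. In the same corals at the inshore site it was higher at 32 °C in 3 of 8 pairs and lower in 5.

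Transcripts with the smallest p for heat in other libraries mostly changed in the same direction here. These lists share no library with the 16, but they share the uneven library numbers. Every library of the series numbered up to 16 is at 30 °C. Among these are A5, A6, B2, B4 and B6 at the inshore site, and C1 and C2 of offshore origin at the offshore site. The part of library numbers in the shared direction was not tested. No transcript passed in the same corals at the inshore site (0 of 26002, 0% called, edgeR on those 16 libraries alone). There 2229 had an unadjusted p under 0.05, which is 8.57%, and DESeq2 called 131 of 29852. The 100 with the smallest p in each direction and a mean log2 CPM of at least 1 were therefore read instead. That choice was made after the data were seen. Of the 100 higher there, 89 were tested here and 84 of them (94.4%) were higher at 32 °C, at a median log2 change of 0.36 against 0.92 where they were chosen. Of the 100 lower there, 96 were tested here and 83 (86.5%) were lower, at a median of -0.31 against -0.90. Over all tested transcripts 50.9% were higher and the median was 0.00. Unadjusted p under 0.05 in the matching direction was found for 33 in each list, where 3.22% of all tested transcripts were higher and 2.77% lower at that p, and none passed after adjustment. Without B1, B3 and B6 in the libraries read, 74 of 88 were higher and 80 of 97 lower.

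Lists from corals of offshore origin at the offshore site were read in the same way. Of their 100 transcripts with the smallest p for a higher level at 32 °C, 86 of the 92 tested were higher here, with a median of 0.37. Of the 100 for a lower level, 83 of 99 were lower here, with a median of -0.26. Without B1, B3 and B6 these counts were 80 of 92 and 78 of 97. In those corals 4 transcripts of 25516 passed (0.0157%, edgeR, 6 corals, with 2049, or 8.03%, at an unadjusted p under 0.05), all lower. DESeq2 called 152 of 15734 there, 53 higher and 99 lower. The 4 that passed in edgeR were lower here in 6 or 7 of 8 corals. OFAVBQ_DN203101_c1_g1 changed by -2.08 ± 0.190 there and had a log2 change of -0.73 ± 0.218 here (SE, edgeR adjusted p = 0.0163 and 0.569). OFAVBQ_DN217826_c12_g1 had -1.27 ± 0.105 there and -0.39 ± 0.129 here (SE, edgeR adjusted p = 0.0163 and 0.633). OFAVBQ_DN203011_c0_g1 and OFAVBQ_DN207486_c7_g1 had -0.21 ± 0.103 and -0.20 ± 0.310 here (SE, edgeR adjusted p = 0.848 and 0.960).

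**Figure D5:**
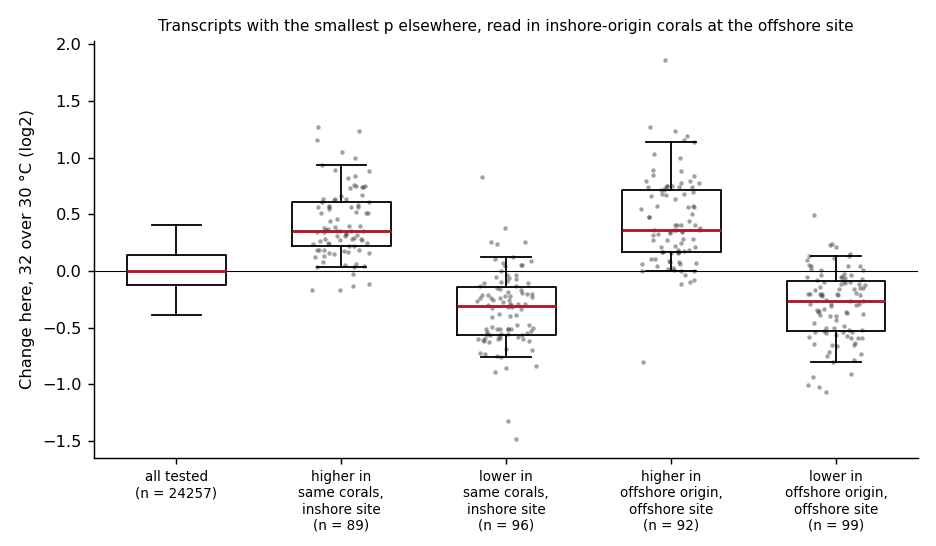
Log2 change from 30 to 32 °C in inshore-origin corals at the offshore site (y axis) of all tested transcripts and of the lists with the smallest p in the same corals inshore or in corals of offshore origin, also at the offshore site. Boxes span the quartiles with the median in red, whiskers reach the 5th and 95th percentiles and dots are single transcripts. The medians are 0.36 and -0.31 for the lists from the same corals and 0.37 and -0.26 for those from offshore-origin corals.

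The lists were also read the other way round. Of the 100 transcripts with the smallest p for a higher level at 32 °C here, 64 of the 80 tested were higher in the same corals inshore and 90 of 95 in corals of offshore origin. Of the 100 for a lower level, 93 of 100 and 91 of 99 were lower. Over all transcripts tested in those fits, 51.3% were higher inshore and 52.3% in corals of offshore origin, and 48.7% and 47.7% were lower. With the lists chosen on the 5 corals other than B1, B3 and B6, the counts were 57 of 78 and 77 of 89 for the higher transcripts and 92 of 100 and 89 of 96 for the lower ones. For single corals the changes at the 2 sites were compared across transcripts, as a description. Over 23974 shared transcripts they correlated at 0.56 in B6, at -0.48 in A6 and -0.41 in B3, and between 0.00969 and 0.13 in the other 5. B6 showed the pattern of the 515 and 473 transcripts at 30 °C at both sites and B3 at opposite temperatures. A6 at the inshore site at 30 °C also stands apart, but its difference between the 2 lists was 0.445, within the -0.388 to 0.563 of ordinary libraries here. B4 at the inshore site at 32 °C stands apart too, with a difference between the 2 lists of 0.967, above that range. The changes of B4 correlated at 0.0968 between sites. In every coral but B6 the changes here correlated more with the inshore changes of some other coral, in B1 at 0.587 against 0.132. That is the highest over the other corals. The part of these libraries in the correlations was not tested.

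A direct test of whether heat acted differently here than in the same corals at the inshore site called no transcript. Over the 32 libraries of inshore-origin corals, 0 of 29680 passed (0% called, edgeR interaction of temperature and site with coral as block). Of these, 1217 had an unadjusted p under 0.05 (4.1%), and DESeq2 called 24 of 81360. Against offshore-origin corals at the same site, 0 of 30470 passed over 28 libraries (0% called, edgeR). Here 1041 had an unadjusted p under 0.05 (3.42%), and DESeq2 called 5 of 81350. In1 against the other 5 genotypes likewise gave 0 of 24257 (0% called, edgeR), with 389 at an unadjusted p under 0.05 (1.6%) and 0 of 78783 called by DESeq2. That test compares 1 genotype with 5 and says nothing of clones in general. With the libraries that stand apart left out, the test by site called 5 of 30120 transcripts and the test by origin 0 of 30881 (edgeR, 1863 and 1543 at an unadjusted p under 0.05). Without B1, B3 and B6 the In1 test called 0 of 24800 (edgeR, 866 at an unadjusted p under 0.05). These interactions do not show that the responses were the same.

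The named transcripts were not alike in these contrasts. OFAVBQ_DN207917_c2_g1 had a log2 change of -0.62 ± 0.138 in the same corals inshore and -0.73 ± 0.166 in corals of offshore origin at the same site (SE, edgeR adjusted p = 0.294 and 0.363), close to its -0.75 here. OFAVBQ_DN203932_c4_g3 had 0.66 ± 0.131 and 0.57 ± 0.128 there. OFAVBQ_DN194560_c0_g1, by contrast, had -0.01 ± 0.209 inshore and -0.25 ± 0.212 in offshore-origin corals, against 0.61 here. Its difference between sites was 0.62 ± 0.241 and between origins 0.85 ± 0.223 on the log2 scale, with unadjusted p = 0.0171 and 0.00148 and adjusted p = 0.982 and 1 (SE, edgeR), and it was chosen for its small p here. OFAVBQ_DN207234_c0_g2 had -0.14 ± 0.215 inshore and -0.73 ± 0.208 in offshore-origin corals, and its difference between sites was -0.57 ± 0.267 (SE, edgeR adjusted p = 0.982).

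Symbiont RNA was read only from the table that bears the name of Durusdinium trenchii, an alga known from corals that withstand warm water. Its totals ran from 4862 to 1545667 counts per library. In B2 it made up 25.1% of both totals at 30 °C and 21.6% at 32 °C, and in A6 4.82% and 10.02%. In the other 6 corals it lay between 0.109% and 0.506% in all 12 libraries, so a low share does not show that a coral lacked algae of other kinds. The log2 ratio of symbiont to host totals was -7.51 ± 2.99 at 30 °C and -7.62 ± 3.18 at 32 °C (SD, n = 8). It was lower at 32 °C in 6 of 8 corals, most in A3 (-1.31), and higher in A6 (1.14) and B3 (0.57). B2 and A6, the corals with the larger shares, went opposite ways, by -0.285 and 1.14. The ratios of the other 6 corals rest on low symbiont totals. The mean change of -0.11 ± 0.719 (SD, n = 8) gave an exact two-sided sign-flip p = 0.664, 0.836 adjusted over 3 measures of whole libraries. Without B1, B3 and B6 the mean change was -0.227. Fewer algae and less RNA per alga cannot be told apart in such libraries.

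Measures of whole host libraries did not pass the test for a change. With each library thinned to 2849802 counts, 46820 ± 1320 transcripts had at least 1 count at 30 °C and 47420 ± 1460 at 32 °C (SD, n = 8, exact two-sided sign-flip p = 0.258, 0.774 adjusted over 3). The 100 most abundant transcripts took 16.3% ± 1.84 of counts at 30 °C and 16.6% ± 2.43 at 32 °C (SD, n = 8, exact two-sided sign-flip p = 0.836). The smallest p that 8 pairs allow is 0.0078125. The 3 libraries that stand apart had the fewest detected transcripts of the 16, at 45139, 45502 and 44857 in B3, B6 and B1, and the highest shares in the top 100, at 19.7%, 18.1% and 21.7%. The mean change in detected transcripts was 604 with all 8 corals and 251 without these 3 corals, and that in the share of the top 100 was 0.297 and -0.0482 percentage points.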

How the data were processed

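Libraries were stranded and made from mRNA after extraction on columns, per the labels' protocols. The submitters' processing notes list RSEM and Trimmomatic 0.36, while the tables bear the name kallisto. Quantifier version and reference assembly were not given in the sources used here. The authors deposited estimated counts per isoform, unscaled, in a table of 87440 transcripts taken here as the host and one of 52359 for D. trenchii. Of 56 columns per table, 1 matched no label and was not used. Counts were rounded to whole numbers. The coral block and all tests used R 4.3.3 with edgeR 4.0.16 (TMM, filterByExpr with a minimum count of 10, quasi-likelihood F test, Benjamini-Hochberg adjustment at 0.05) on the 16 libraries alone, and DESeq2 1.42.0 as an alternative. The standard error was taken as the log2 change over the root of F. Log2 changes of single corals used a prior count of 2. The libraries of a coral come from the same animal, and they deviated together from their group means (r from 0.356 to 0.741). Between different corals, In1 clones included, the highest such r was 0.589, above the value within A6, B1, B3 and B6. The edgeR code was run on simulated counts with known changes, as a check of the code whose outcome is not reported here. Named transcripts were to be the 2 largest called changes in each direction with a mean log2 CPM of at least 1, filled up by the smallest p where fewer passed. The corals, lists and tests were chosen with earlier results of these data known. Precision is limited by 8 pairs, and thinning and shares cover counting error only.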

Additional observations from a re-analysis of the deposited data

Results flagged for a closer look

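Among 23 sets of 8 values examined for a value far from the others, 2 were found, where chance alone gives about 1 in 20. Coral B6 at 30 °C held 49.4 CPM of OFAVBQ_DN207917_c2_g1, while the other 7 corals held 70.7 to 92.9 CPM. This library is among the 3 that stand apart, and its part in the low value was not tested. B6 was also the lowest at 32 °C, at 27.8 CPM in a library that does not stand apart. The share of counts in the 100 most abundant transcripts went up by 4.75 percentage points from 30 to 32 °C in B1, while in the other 7 corals it changed by -2.04 to 0.617 points. The library of B1 at 32 °C is the one with OFAVBQ_DN222743_c1_g1 at 64900 CPM.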

How the results depend on the processing

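Of 20 alternatives for the heat test, 15 gave 0 calls, among them RLE factors, a mean CPM of at least 1, In1 corals summed, the symbiont ratio or library numbers up to 16 as a term, libraries numbered 17 to 56 only, and no replicate block (0 calls, 788 at an unadjusted p under 0.05 against 1453 with corals paired). The others gave 93 (DESeq2), 769 (no low-count filter), 3 (all libraries in 1 fit: OFAVBQ_DN203932_c4_g3, OFAVBQ_DN207917_c2_g1 and OFAVBQ_DN205365_c0_g1) and 2 (without B1, B3 and B6, added after the data were seen). Leaving out each coral gave 0 to 3, the 3 being OFAVBQ_DN212804_c2_g1, OFAVBQ_DN203758_c1_g1 and OFAVBQ_DN207234_c0_g2, all lower, without B6. For heat by site, DESeq2 gave 24, no filter 1, the libraries that stand apart left out 5 (added later), and leaving out each coral 0 to 1, the 1 without A6. In all 5 the fitted heat change was higher at the offshore than at the inshore site, by 6.27 to 8.24 on the log2 scale. OFAVBQ_DN214070_c8_g1 was among the 5. Its median at 30 °C was 0.922 CPM at the offshore site and 1.4 CPM at the inshore site, so its fold rests on very few counts. Among the libraries left out were B4 at the inshore site at 32 °C, at 39 CPM (0 at 30 °C), and B3 at the offshore site at 30 °C, at 27.3 CPM. The part of these libraries in that call was not tested, and the levels behind the other calls are not given here. For heat by origin, DESeq2 gave 5 and no filter 72, and for In1 against other genotypes no filter gave 169 and leaving out B1, B3 and B6 gave 0 (added later). The cause of these differences was not tested. The block changed no call under edgeR. The 4 named transcripts kept their direction in all 20 alternatives, and each passed in 2 or 3. The ratio change turned to 0.13 with only the 82 symbiont transcripts of at least 10 counts in 8 libraries, and ran from -0.283 to 0.0656 with each coral left out, the latter without A3. The change in the share of the top 100 ran from -0.339 to 0.631 points with each coral left out, the former without B1, and was -0.0482 without B1, B3 and B6 and -0.22 for the top 1000. Low symbiont totals in most libraries limit that table to its sum.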
